A study of Monodelphis domestica with 6 samples.

Results

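The transcripts of surface antigens that are used to recognise stromal cells and stem cells were compared between skin fibroblasts and induced pluripotent stem cells (iPSCs) of Monodelphis domestica, the gray short-tailed opossum, a marsupial. The members were chosen by name: THY1, CD44, ENG, NT5E, CD9, CD24, PROM1, PODXL, ALPL and CD34. Of these 10 symbols, 9 had a row among the 35665 genes of the deposited tables, and none carried the symbol CD24, which was not looked for under unnamed gene numbers. Of the 9, 7 passed the expression filter and were tested (THY1, CD44, ENG, CD9, PROM1, PODXL and ALPL), while NT5E and CD34 were too low in both cell types.

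RNA-seq had been run on 2 libraries of neonatal skin fibroblasts (neoSF), 1 from each of the inbred strains FD2M1 and LSD1, and on 4 libraries of iPSCs (monoiPSC), from 1 line of each strain, sampled at passage 15 and again at passage 25. The neoSFs were untreated, wild type, primary cultures from 10-day-old female pups, grown with serum. The monoiPSCs were reprogrammed from them with episomal plasmids for human OCT4, SOX2, NANOG, KLF4, LIN28 and cMYC, together with plasmids for p53DD and EBNA1, and were kept without feeder cells in medium with human LIF, bFGF and a ROCK inhibitor. Each strain was represented by 1 monoiPSC line, so that the passages of a line are not independent cultures. The p-values below measure the spread among the libraries of each fit. Those between cell types take the passages of a line as replicates. The neoSFs were read in-house with shorter, single-end reads and the monoiPSCs by a sequencing service with longer, paired-end reads, so that cell type and sequencing run cannot be told apart. The totals were 14278794 and 16982978 counts in the neoSF libraries and between 28684754 and 35564261 in the monoiPSC libraries.

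Surface antigens are membrane proteins that an antibody can reach on a living cell, and sets of them are used to sort and name cells. THY1 (also CD90), ENG (CD105), NT5E (CD73) and CD44 are the usual positive antigens of cultured mesenchymal stromal cells, which include dermal fibroblasts, whereas CD34 marks blood progenitors and vessel endothelium. Alkaline phosphatase activity, CD9, CD24, PROM1 (CD133) and the sialomucin PODXL, which carries glycan epitopes used to stain human pluripotent cells, are read as antigens of stem cells. THY1, NT5E, CD24 and ALPL are held on the membrane by a glycosylphosphatidylinositol (GPI) anchor, and the others span it. The values below are of RNA and do not give the protein at the surface. The paper reported robust antibody staining of pluripotency markers in monoiPSCs, TRA antigens among them, which was not used here.

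Most of the tested antigens differed between the reprogrammed cells and the fibroblasts, and those that were lower included both stromal antigens and ALPL. PROM1 and PODXL were higher in monoiPSCs, by 240.2-fold and 26.0-fold. THY1, ALPL and ENG were lower, by 22.6-fold, 17.3-fold and 6.07-fold. CD44 and CD9 were in neither set, at 1279 ± 791 and 1567 ± 1132 normalized reads in neoSFs (SD, n = 2) and 1100 ± 366 and 1889 ± 659 in monoiPSCs (SD, n = 4).

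Differentially expressed (DE) genes were those that changed 2-fold or more with a p of 0.05 or less after Benjamini-Hochberg adjustment, in edgeR's quasi-likelihood test over the 13072 genes that passed the filter. Of the 7 tested antigens, 2 were DE higher in monoiPSCs, 3 were DE lower and 2 were not DE. Among all tested genes 45.9% were DE, with 24.3% higher and 21.6% lower, and the median log2 fold change was 0.08 against -0.12 over the 7 antigens. In 5 of the 7 the libraries of the cell types did not overlap, which held for 73.2% of all tested genes (37.1% with the monoiPSCs lower and 36.1% with them higher). For each of these 5 the exact two-sided permutation test gave p = 0.0667, the smallest that the 15 splits of 6 libraries allow.

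**Figure D1:**
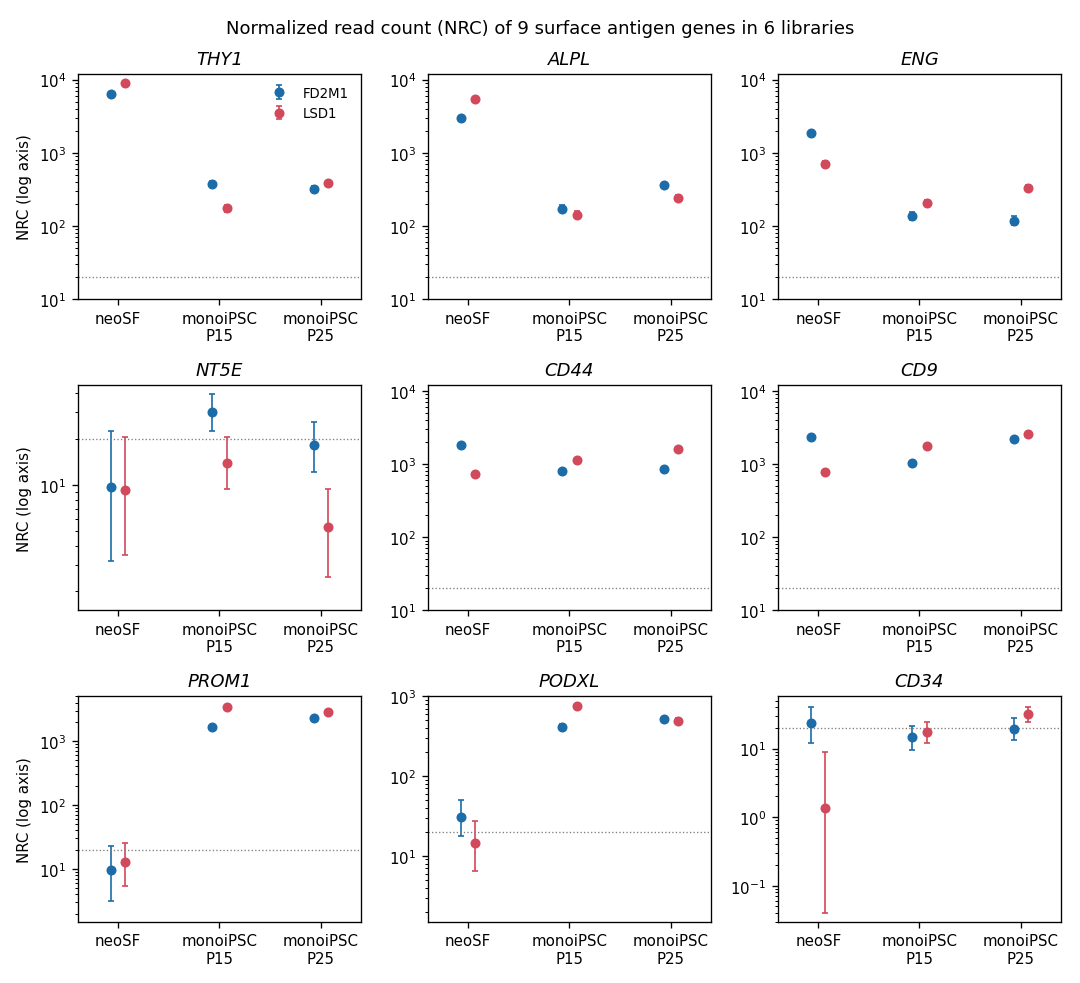
Normalized read count (NRC, log axis) of the 9 antigen genes in each of the 6 libraries, by cell type, passage and strain (blue FD2M1, red LSD1). Bars are exact 95% Poisson intervals that take a count as 1 fragment and cover counting error only, and the dotted line is the NRC of 20 used as expression filter. THY1, ALPL and ENG lie lower in all 4 monoiPSC libraries than in both neoSF libraries, PROM1 and PODXL lie higher, and CD44, CD9, NT5E and CD34 overlap.

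Among the stromal antigens, THY1, a GPI-anchored immunoglobulin-fold protein of fibroblasts, neurons and thymocytes (gene 100031120, chromosome 4), had an NRC of 6283 in the FD2M1 and 8965 in the LSD1 neoSF library. The monoiPSC values were 378 and 322 in the FD2M1 line and 174 and 389 in the LSD1 line at passages 15 and 25. All 4 monoiPSC libraries were thus far below both neoSF libraries, yet each remained well above the filter. The log2 fold change was -4.50 (SE 0.33, 95% interval -5.27 to -3.73), with an adjusted p of 4.57e-05 in edgeR's quasi-likelihood test. Against the neoSF library of the same strain, THY1 changed by -4.05 and -4.29 on the log2 scale in FD2M1 and by -5.69 and -4.53 in LSD1, first at the earlier and then at the later passage.

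ENG, or endoglin, an accessory receptor for ligands of the TGF-beta and BMP family (gene 100011898, chromosome 1), had an NRC of 1880 in FD2M1 neoSFs and 712 in LSD1 neoSFs. In monoiPSCs its NRC was 139 and 118 in the FD2M1 line and 206 and 334 in the LSD1 line at passages 15 and 25. The cell types did not overlap, but the strain order was turned over, with FD2M1 the higher strain in neoSFs and the lower one in monoiPSCs. The log2 fold change was -2.60 (SE 0.49, 95% interval -3.75 to -1.46), with an adjusted p of 0.00279 (edgeR, quasi-likelihood). The size of the fall rested on the neoSF libraries, since it was -1.75 when the FD2M1 culture was left out and -3.13 when the LSD1 culture was.

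NT5E, the ectonucleotidase that makes adenosine outside the cell from AMP (gene 100024945, chromosome 2), was low in all 6 libraries. Its NRC was 9.76 in FD2M1 and 9.24 in LSD1 neoSFs, from 5 and 6 counts. The monoiPSC libraries had 30.3 and 18.2 in the FD2M1 line and 14.0 and 5.28 in the LSD1 line at passages 15 and 25, from 54, 29, 27 and 10 counts. The libraries overlapped, and the lowest and the highest of the 6 values were both from monoiPSCs. When the expression filter was left out, the log2 fold change was 0.90 (SE 0.82), with an adjusted p of 0.393 by edgeR, in a fit in which 38.4% of the 17674 genes were DE. No difference was detectable at this depth.

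CD44, the main receptor for the matrix polysaccharide hyaluronan (gene 100009826, chromosome 5), did not differ between the cell types by more than the spread among libraries. Its NRC was 1839 in FD2M1 and 720 in LSD1 neoSFs. The monoiPSC libraries had 804 and 851 in the FD2M1 line and 1144 and 1600 in the LSD1 line at passages 15 and 25. Every monoiPSC value thus lay between the neoSF values. The fitted log2 fold change was -0.12 (SE 0.41), with an adjusted p of 0.816 by edgeR, and its 95% interval of -1.08 to 0.84 includes a 2-fold fall.

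Among the stem cell antigens, ALPL, the tissue-nonspecific alkaline phosphatase of bone, liver and pluripotent cells (gene 100026689, chromosome 4), was higher in the fibroblasts. Its NRC was 2955 in FD2M1 and 5480 in LSD1 neoSFs. The monoiPSC libraries had 172 and 358 in the FD2M1 line and 143 and 244 in the LSD1 line at passages 15 and 25. The lowest neoSF value was above the highest monoiPSC value in both strains, and LSD1 was the higher strain in neoSFs and the lower one in monoiPSCs at each passage. In the fit it changed by -4.11 on the log2 scale (SE 0.40, 95% interval -5.04 to -3.18), with an adjusted p of 0.000140 (edgeR, quasi-likelihood). An enzyme stain for alkaline phosphatase reads activity, which RNA counts do not give.

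PROM1, a pentaspan glycoprotein of membrane protrusions found on stem and progenitor cells (gene 100015509, chromosome 5), had the largest change of the 7. Its NRC was 9.43 in FD2M1 and 12.9 in LSD1 neoSFs, from 5 and 8 counts. In monoiPSCs it was 1674 and 2264 in the FD2M1 line and 3456 and 2884 in the LSD1 line at passages 15 and 25. Its fitted log2 fold change was 7.91 (SE 0.47, 95% interval 6.80 to 9.01), with an adjusted p of 2.42e-05 by edgeR. Across 11 alternative settings it stayed between 7.73 and 8.13.

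PODXL, or podocalyxin, a sialomucin with an anti-adhesive, negatively charged outer part (gene 103103340, chromosome 8), was also near the floor in fibroblasts. Its NRC was 30.3 in FD2M1 and 14.5 in LSD1 neoSFs, from 16 and 9 counts. The monoiPSC libraries had 416 and 518 in the FD2M1 line and 751 and 498 in the LSD1 line at passages 15 and 25. All monoiPSC libraries lay above both neoSF libraries. The log2 fold change was 4.70 (SE 0.45, 95% interval 3.66 to 5.75), with an adjusted p of 0.000132 (edgeR, quasi-likelihood).

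CD9, a tetraspanin that organises integrins and other partners in the membrane (gene 100012793, chromosome 8), was well expressed in both cell types. Its NRC was 2367 in FD2M1 and 767 in LSD1 neoSFs. In monoiPSCs it was 1022 and 2182 in the FD2M1 line and 1788 and 2563 in the LSD1 line at passages 15 and 25. The highest value was from LSD1 monoiPSCs at passage 25 and the next was from FD2M1 neoSFs, so that the cell types overlapped. The log2 fold change was 0.37 (SE 0.49, 95% interval -0.78 to 1.51), with an adjusted p of 0.533 by edgeR, and that interval includes a 2-fold rise.

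CD34, a sialomucin of the same family as PODXL (gene 100021117, chromosome 2), was low in all libraries. Its NRC was 23.4 in FD2M1 neoSFs and 1.34 in LSD1 neoSFs, from 12 counts and 1 count. In monoiPSCs it was 14.7 and 19.2 in the FD2M1 line and 17.5 and 31.9 in the LSD1 line at passages 15 and 25. The LSD1 neoSF library was the lowest of the 6, and the FD2M1 neoSF library lay among the monoiPSCs. Without the expression filter the log2 fold change was 0.87 (SE 0.87), with an adjusted p of 0.440 by edgeR, and no difference was detectable at this depth.

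**Figure D2:**
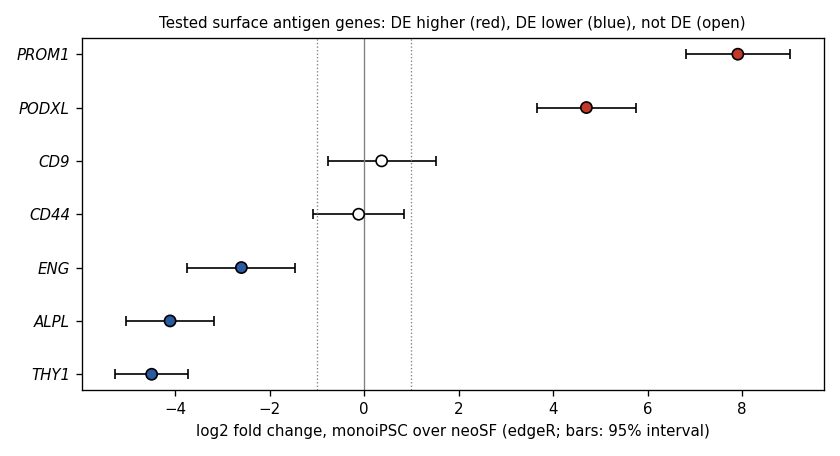
Fitted log2 fold change, monoiPSC over neoSF, of the 7 tested antigen genes with its 95% interval, from the edgeR fit over all 13072 genes and 6 libraries. Dotted lines mark a 2-fold change. The intervals of THY1, ALPL and ENG lie below the lower line and those of PODXL and PROM1 above the upper line, while those of CD44 and CD9 cross 0.

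The neoSF cultures of the strains differed from each other in several antigens. The FD2M1 library exceeded the LSD1 library 3.09-fold for CD9, 2.64-fold for ENG, 2.55-fold for CD44 and 2.09-fold for PODXL. These 4 of the 7 tested antigens were at least 2-fold apart between neoSF libraries, against 15.2% of all tested genes. THY1, ALPL and PROM1 were 1.43-fold, 1.85-fold and 1.37-fold higher in the LSD1 library. With 1 neoSF library per strain, this difference has no replicate check.

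Each monoiPSC library was therefore also set against the neoSF library of its own strain. CD44 changed by -1.19 and -1.11 on the log2 scale in the FD2M1 monoiPSC libraries and by 0.67 and 1.15 in the LSD1 libraries. CD9 likewise changed by -1.21 and -0.12 in FD2M1 monoiPSCs and by 1.22 and 1.74 in LSD1 monoiPSCs. Such opposite directions were seen for these 2 of the 7 antigens and for 5.84% of all tested genes. ENG was lower in both strains, with changes of -3.76 and -4.00 in FD2M1 and of -1.79 and -1.09 in LSD1.

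A fit with a separate cell type effect for each strain, which was chosen after these values were seen, gave a difference between strains (LSD1 minus FD2M1, log2) of 2.07 (SE 0.37) for CD44, 2.45 (SE 0.50) for ENG and 2.05 (SE 0.67) for CD9. Their unadjusted p were 0.00155, 0.00286 and 0.0225 in edgeR's quasi-likelihood test, and 3 of the 7 antigens passed an unadjusted p of 0.05 where 9.13% of all genes did. After Benjamini-Hochberg adjustment over all genes none of the 7 passed, with adjusted p between 0.186 and 0.971 by edgeR, and 0.0841% of all genes did. With the LSD1 libraries alone the fitted log2 fold changes of CD44 and CD9 were 1.02 and 1.59. With the FD2M1 libraries alone they were -1.08 and -0.49. These fits rest on 1 neoSF library each, which was taken to vary like the pair of monoiPSC libraries. The other 5 antigens kept their direction in each strain alone.

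**Figure D3:**
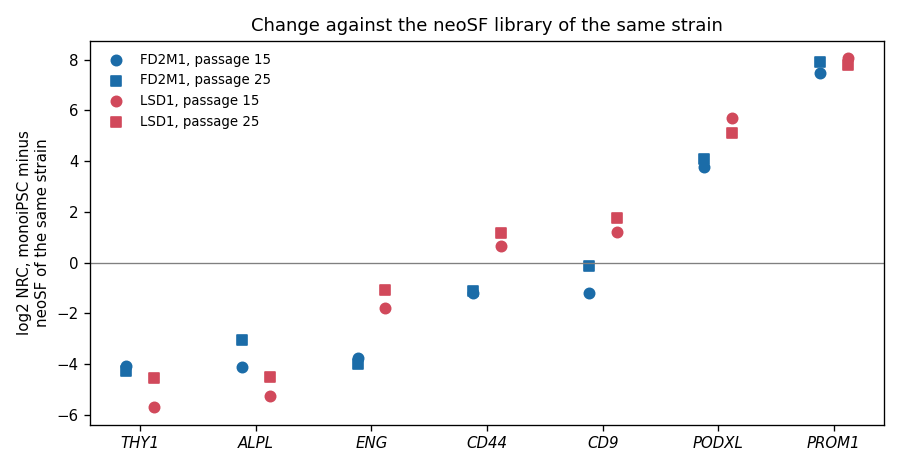
Difference of log2 NRC between each monoiPSC library and the neoSF library of the same strain for the 7 tested antigens (circles passage 15, squares passage 25, blue FD2M1, red LSD1). CD44 and CD9 lie below 0 in FD2M1 and above 0 in LSD1, and the other 5 lie on 1 side of 0 in both strains.

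Within the monoiPSCs, 12252 genes were tested between passages, with strain in the model, and between strains, with passage in the model. This fit leaves 1 residual degree of freedom, so that the absence of a call does not show equal levels. Between passage 25 and passage 15 none of the 7 antigens passed the adjusted threshold (adjusted p from 0.351 to 0.931, edgeR), and neither did any other gene (0%). At an unadjusted p of 0.05, 2 of the 7 and 9.35% of all genes passed. These were CD9, at 0.79 on the log2 scale (SE 0.20), and ALPL, at 0.90 (SE 0.27), each higher at passage 25 in both lines. Their unadjusted p by edgeR were 0.00641 and 0.0146. DESeq2 called none of the 7 either, although it called 119 genes in all.

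Between the LSD1 and FD2M1 lines the edgeR fit called none of the 7 (adjusted p from 0.216 to 0.638) and 0% of all genes. At an unadjusted p of 0.05, 4 of the 7 and 14.2% of all genes passed, and each of the 4 was higher in LSD1. The log2 fold changes were 0.71 (SE 0.18) for CD44, 1.04 (SE 0.33) for ENG, 0.70 (SE 0.21) for PROM1 and 0.52 (SE 0.19) for CD9. Their unadjusted p by edgeR were 0.00621, 0.0195, 0.0154 and 0.0355. DESeq2 called none of the 7 and 191 genes in all. With 1 line per strain, strain and line cannot be told apart. The passages of a line stood in for replicates in this comparison.

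**Figure D4:**
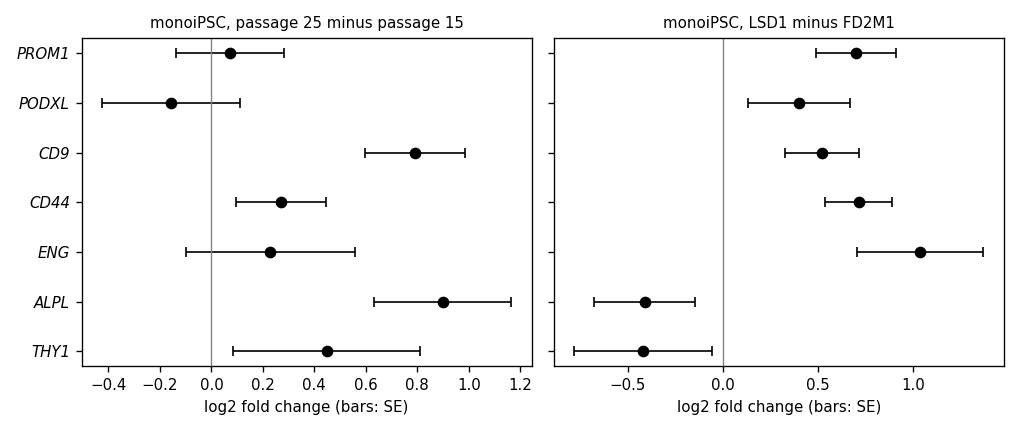
Log2 fold changes of the 7 tested antigens within the 4 monoiPSC libraries, passage 25 over passage 15 (left) and LSD1 over FD2M1 (right), with SE as bars, from the edgeR fit with both terms. That fit leaves 1 residual degree of freedom. ALPL and CD9 have the largest passage differences, 0.90 and 0.79, and ENG the largest strain difference, 1.04.

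The cell types were checked against their markers. All 7 fibroblast markers with a row (COL1A1, COL3A1, COL5A1, LUM, DCN, FN1 and VIM) were DE lower in monoiPSCs, and their summed NRC ran from 2173400 to 2702200 in neoSFs and from 15761 to 17730 in monoiPSCs. All 7 pluripotent cell markers examined (POU5F1, SOX2, NANOG, LIN28A, PRDM14, DNMT3B and SALL4) were DE higher, with sums of 130.0 to 194 and 9716 to 13745. Since these are bulk samples, fewer cells of a type and less RNA per cell cannot be told apart, for THY1 and the other antigens as for the markers. Some markers of other cell types were also DE. The 4 melanocyte markers with a row (MITF, DCT, TYR and MLANA) summed to 253 to 402 in neoSFs and 4601 to 15555 in monoiPSCs, nearly all from DCT, which was DE higher, while MITF was not DE. The 5 skeletal muscle markers (MYOD1, MYF5, MYOG, DES and ACTA1) summed to 438 to 1801 in neoSFs and 2094 to 19999 in monoiPSCs, and of the 4 tested MYOG was DE higher and MYOD1, DES and ACTA1 were not DE. The 6 neural markers (PAX6, NES, SOX1, NEUROG2, TUBB3 and ELAVL3) summed to 6327 to 24906 and 5930.1 to 14835. NES made up nearly all of the neoSF sums, with an NRC of 6143 and 24777, and was not DE, at -1.155 (SE 0.54). ELAVL3, NEUROG2 and TUBB3 were DE higher in monoiPSCs, and PAX6 and SOX1 were not tested. The highest muscle sum was that of LSD1 monoiPSCs at passage 25, the library in which THY1, CD44, ENG, CD9 and CD34 had their highest monoiPSC value. NT5E had its lowest value there, at 5.28, and PROM1, PODXL and ALPL had their highest monoiPSC value in other libraries. The part of melanocyte, muscle and neural cells in the antigen values was not tested.

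ENG and CD34 are also antigens of endothelium, and CD34 and CD44 of blood cells. The 10 endothelial markers (PECAM1, CDH5, KDR, TEK, TIE1, VWF, ESAM, CLDN5, EGFL7 and ERG) summed to an NRC of 258 to 287 in neoSFs and 680 to 1870 in monoiPSCs. The highest of these sums, 1870, was that of LSD1 monoiPSCs at passage 25, where ENG and CD34 also had their highest monoiPSC value. Of the 5 that were tested, TIE1 and EGFL7 were DE higher in monoiPSCs, VWF was DE lower, and KDR and ESAM were not DE. CDH5, which defines endothelium, had 0 counts in both neoSF libraries and 2 in each monoiPSC library, and PECAM1 had 1 and 0 in neoSFs and 18 to 31 in monoiPSCs. ERG, which was not tested, had 9 and 42 counts in neoSFs and 0 in all 4 monoiPSC libraries, at least 21-fold lower against a floor of 3 counts per library, and TEK had 2 and 14 in neoSFs and 0 to 16 in monoiPSCs. The 7 haematopoietic markers with a row (CSF1R, CD68, CD14, PTPRC, SPI1, LCP1 and TYROBP) summed to 146 to 178 in neoSFs and 90.1 to 116 in monoiPSCs, and the pan-leukocyte gene PTPRC had 2 and 4 counts in the neoSF libraries. Of the 3 that were tested, CSF1R was DE lower in monoiPSCs, at -3.13 on the log2 scale (SE 0.42), from 37 and 49 counts in neoSFs, and CD68 and CD14 were not DE. Of the keratinocyte markers 4 had a row (ITGB4, DSG3, TP63 and SFN), with sums of 132 to 186 and 97.4 to 115. DSG3 was DE lower, at -5.58 (SE 1.16), ITGB4 was not DE, and TP63 had 4 and 2 counts in neoSFs and 0 in monoiPSCs. SFN, which was not tested, went the other way, with 2 and 0 counts in neoSFs and 18 to 40 in monoiPSCs. The part of these cell types was not tested.

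Genes that share the pathways of the antigens were listed as well. Their counts stand beside 24.3% DE higher and 21.6% DE lower over all tested genes. Of 17 further stromal surface antigens that were tested, 12 were DE lower in monoiPSCs and 2 were DE higher. The median was -4.29 on the log2 scale, against 0.08 over all genes. The lowest was CSPG4 (NG2), a proteoglycan of pericytes and dermal cells, at -6.76 (SE 0.41). The endopeptidase MME, the collagen receptor MRC2 and the PDGF receptor PDGFRB, named after their values were seen, were at -5.40, -4.29 and -5.50 on the log2 scale. The highest was NGFR, the low-affinity neurotrophin receptor, at 7.44 (SE 1.27, adjusted p = 0.00183, edgeR). NGFR had an NRC of 158 in FD2M1 neoSFs and 1.58 in LSD1 neoSFs, and of 9307 and 7780 in FD2M1 and 14617 and 18410 in LSD1 monoiPSCs at passages 15 and 25. The adhesion molecule MCAM, named after its value was seen, was the other DE gene that was higher, at 3.10 (SE 0.94). With strain as a block, which pairs the libraries, or without the LSD1 neoSF library, 1 gene of the list was DE higher in place of 2. Thus THY1 and ENG moved with most of this list, whereas CD44 did not.

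Of 18 tested surface proteins of pluripotent cells, 13 were DE higher in monoiPSCs and 4 were DE lower, and the median was 3.14 on the log2 scale. The highest fitted change was that of TDGF1, a NODAL co-receptor that is also GPI-anchored, with 0 counts and 1 count in the neoSF libraries and an NRC of 451 to 1210 in monoiPSCs. Its summed counts, scaled by library, stood in a ratio of 1160 (exact 95% Poisson interval 208 to 45900). The epithelial adhesion molecule EPCAM and the receptor KIT, named after their values were seen, stood in ratios of 709 (196 to 5860) and 792 (142 to 31300). The lowest was the gap junction gene GJA1, at -3.29 (SE 0.19, adjusted p = 2.38e-05, edgeR). PROM1 and PODXL moved in the direction of most of this list. ALPL moved in the other, which was that of most of the stromal list.

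**Figure D5:**
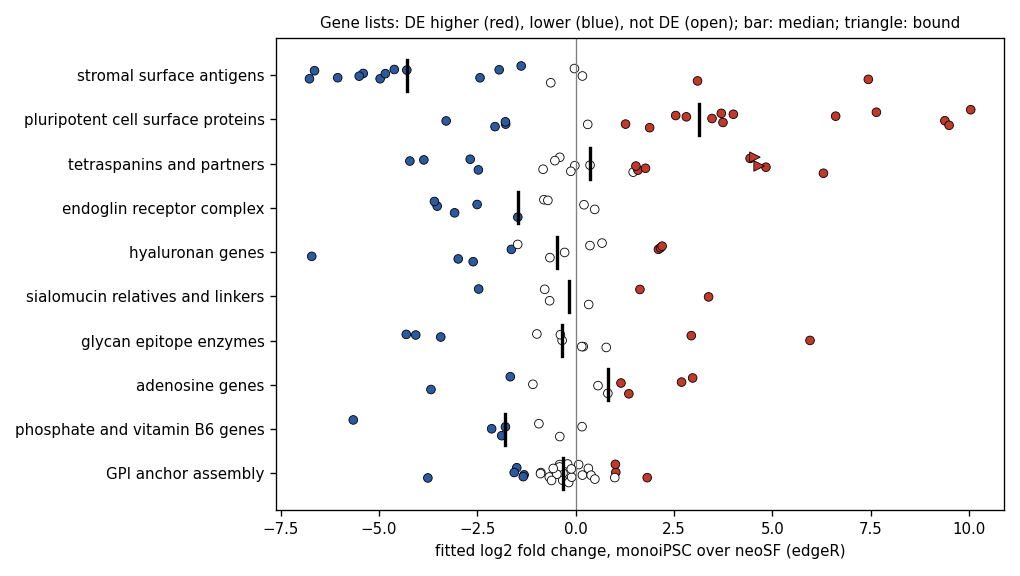
Fitted log2 fold change, monoiPSC over neoSF, of the tested genes of 10 lists related to the antigens, with the list median as a bar. Red points were DE higher, blue DE lower and open points not DE; triangles are lower bounds of genes with 0 counts in both neoSF libraries, and points of genes with 1 to 3 neoSF counts depend on the prior count of the fit. The median is -4.29 for stromal surface antigens and 3.14 for surface proteins of pluripotent cells.

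PODXL and PROM1 were set beside the genes of their own families. PODXL is linked to the actin cortex by ezrin (EZR) and its scaffold SLC9A3R1 (NHERF1), and both were DE higher in monoiPSCs, at log2 fold changes of 1.63 (SE 0.22) and 3.38 (SE 0.24). The related linker moesin (MSN) was DE lower, at -2.46 (SE 0.28), while radixin (RDX), SLC9A3R2 and the relative PODXL2 were not DE, at -0.79, -0.66 and 0.33. Of these, RDX had an adjusted p of 0.00462 by edgeR and missed only the 2-fold threshold. PROM2, the paralog of PROM1, had at most 5 counts in any library and was not tested. The list of 6 tested genes had 2 DE higher and 1 DE lower, with a median of -0.17.

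The enzymes that build the glycan epitopes carried by PODXL and other surface proteins were also examined. Of 11 tested, 2 were DE higher and 3 lower, against 24.3% and 21.6% of all tested genes, with a median of -0.34. The fucosyltransferase FUT9, which makes the Lewis X epitope, had 2 counts and 0 counts in neoSFs and an NRC of 75.4 to 147 in monoiPSCs, a ratio of 65.7 (exact 95% Poisson interval 18.1 to 543). The keratan sulphate enzyme B3GNT7 was the lowest, at -4.30 (SE 0.51).

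For CD44, the enzymes and proteins of hyaluronan turnover were examined. Of 12 tested, 3 were DE higher and 4 lower, against 24.3% and 21.6% of all tested genes, with a median of -0.47. HMMR, another hyaluronan-binding protein that also acts at the mitotic spindle, was the highest, at 2.20 (SE 0.19). CEMIP, which is needed for hyaluronan breakdown in dermal fibroblasts, was the lowest, at -6.71 (SE 0.38). The synthases did not move together, with HAS2 DE lower at -2.61 (SE 0.26) and HAS3 DE higher at 2.10 (SE 0.42), both named after their values were seen. CD44 itself thus lay near the middle of a list whose members went both ways.

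For ENG, 9 genes of its receptor complex were tested, of which 5 were DE lower and 0 were DE higher (median -1.47). BMPR2, the type II receptor for BMPs, was the lowest, at -3.59 on the log2 scale (SE 0.22), and of the 5 the co-receptor TGFBR3 was the highest, at -1.47 (SE 0.35). TGFBR2 and ACVRL1, the type I receptor that pairs with endoglin, were at -3.52 and -2.50, and are named after their values were seen. The ligands GDF2 and BMP10, also named after their values were seen, had at most 4 counts in any library.

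The genes of extracellular adenosine, the product of NT5E, went both ways. Of 9 tested, 4 were DE higher and 2 lower, against 24.3% and 21.6% of all tested genes, with a median of 0.82. The nucleoside transporter SLC29A1 was the highest, at 2.97 (SE 0.51), and the lysosomal transporter SLC29A3 the lowest, at -3.68 (SE 0.40). ENTPD1 (CD39), which supplies AMP to NT5E, was DE lower at -1.66 (SE 0.44), and the receptor ADORA2B was DE higher at 2.69 (SE 0.45), both named after their values were seen. Without the LSD1 neoSF library 2 genes of this list were DE higher in place of 4.

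CD9 belongs to the tetraspanins, of which 19, with their partners, were tested. Of these, 8 were DE higher, 4 were DE lower and 7 were not DE (median 0.36). TSPAN33 had 0 counts in both neoSF libraries and an NRC of 117 to 176 in monoiPSCs, and was at least 25.3-fold higher against a floor of 3 counts per library. TSPAN18 was the lowest, at -4.21 (SE 0.38). The CD9 partner IGSF8 was not DE, at -0.53 (SE 0.15), and the partner PTGFRN was DE lower, at -2.68 (SE 0.22), both named after their values were seen. IGSF8 had an adjusted p of 0.0163 by edgeR and missed only the 2-fold threshold.

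For ALPL, 7 genes of phosphate and vitamin B6 handling were tested, since the enzyme splits pyrophosphate and pyridoxal phosphate, and 4 were DE lower and 0 were DE higher (median -1.79). ENPP1, which makes pyrophosphate, was the lowest, at -5.65 on the log2 scale (SE 0.69), and of the 4 the phosphatase PDXP was the highest, at -1.79 (SE 0.20). The pyrophosphate exporter ANKH and the phosphatase PHOSPHO1 were the others, at -2.14 and -1.88. The phosphate transporters SLC20A1 and SLC20A2 and the kinase PDXK were not DE, at -0.40, 0.16 and -0.93. Of these, PDXK had an adjusted p of 0.00584 by edgeR and missed only the 2-fold threshold. ALPI, the intestinal alkaline phosphatase, had 0 counts in all 6 libraries.

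The enzymes that make and attach the GPI anchor of THY1, NT5E and ALPL were listed last. Of 28 tested, 20 were not DE, 5 were DE lower and 3 were DE higher, with a median of -0.33. MPPE1, which remodels the attached anchor, was the highest, at 1.82 (SE 0.60), and the mannosyltransferase PIGZ the lowest, at -3.76 (SE 0.82). The 3 higher calls depended on the setting, with 1 in DESeq2 and 0 without the FD2M1 neoSF library.

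Genes with the pattern most like each antigen were taken from 10348 tested genes with a symbol and an NRC of at least 100 in the higher cell type, by the root mean square difference of log2 values, each centred on its mean over the 6 libraries. The nearest to THY1 were FOS (0.0973) and PCDH7 (0.255), and to ALPL GDF6 (0.206) and NIPA1 (0.211). Those nearest to ENG were SLC35G1 (0.244) and GSTK1 (0.269). PROM1 was closest to LRTM1 (0.168) and SLAIN1 (0.209), and PODXL to LRRTM2 (0.138) and DUSP26 (0.186). CD44 was closest to PLXNB1 (0.195) and SRPX (0.204), and CD9 to FBLN2 (0.140) and NRCAM (0.219). The likeness describes 6 libraries only.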

How the data were processed

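The files hold RNA-seq of 2 neoSF and 4 monoiPSC libraries. The authors aligned reads to MonDom5 with StrandNGS, filtered them by quality and mapping, and deposited estimated counts per gene, since 87.1% of the values above 0 were fractional. They were rounded to whole numbers, and whether the counting used strand was not given in the sources used here. A further deposited file holds log2 values that the authors normalized with DESeq, and their antilogarithm is the NRC. Levels depend on gene length and were not compared between genes outside the marker sums. Those sums add the NRC of several genes and are weighted to the longer and more abundant ones.

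Genes were kept where both neoSF libraries, or all 4 monoiPSC libraries, reached an NRC of 20, and were tested with edgeR 4.0.16 (glmQLFit and glmQLFTest, TMM scaling, R 4.3.3) over all such genes, without covariates. Standard errors were derived from the F statistic. Alternatives were DESeq2 1.42.0, limma 3.58.1 on the log2 values, RLE scaling, no filter, strain as block and leaving out each library. On simulated counts of 13072 genes with 200 genes changed 4-fold between monoiPSC and neoSF, edgeR recovered 158 and called 10 others. DESeq2 recovered 187 and called 58 others, and limma recovered 148 and called 11 others. The simulated libraries were independent and had far fewer changed genes than these data, so these counts do not give the error rate here. Exact intervals of counts cover counting error only and would be too narrow for monoiPSCs if paired reads were each given a count, which the sources used here do not state, and 3 counts correspond to an NRC of 5.85 and 4.75 in the neoSF and 1.55 to 1.88 in the monoiPSC libraries.

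Each monoiPSC line was derived from the neoSFs of its strain, which pairs the libraries by origin. The deviations of the same-strain libraries from their group means correlated weakly across genes, between -0.02 and 0.08.

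The members and lists were chosen with earlier results of these data known, and a few listed genes are not reported here and enter no list value. Named genes are every member, the DE genes with the highest and lowest log2 fold change of each further list, every gene of lists with at most 10 genes found, and the 2 genes most like each tested member. Others are said to be named after their values were seen. Chromosomes are those of the MonDom5 gene identifiers.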

Additional observations from a re-analysis of the deposited data

Results flagged for a closer look

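The change of CD44 from neoSF to monoiPSC differed between the strains by 2.07 on the log2 scale (LSD1 minus FD2M1, SE 0.37), because both FD2M1 monoiPSC libraries lay below the FD2M1 neoSF library and both LSD1 monoiPSC libraries above the LSD1 one. The change of CD9 differed in the same way, by 2.05 (SE 0.67). In edgeR's quasi-likelihood test of this difference over all genes the adjusted p were 0.186 for CD44 and 0.428 for CD9, so neither passed the correction.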

How the results depend on the processing

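The DE calls of THY1, ENG, ALPL, PROM1 and PODXL were the same under all 11 alternatives listed for each, and with the strain as replicate block 2 antigens were DE higher and 3 lower, as without the block, which pairs the libraries by strain and changed no other antigen call. Without 1 library at a time the log2 fold change ran from -0.64 to 0.70 for CD44 and from -0.22 to 1.39 for CD9. CD44 turned to 0.70 without the FD2M1 neoSF library and to 0.0044 without the FD2M1 monoiPSC library of passage 15, and CD9 turned to -0.22 without the LSD1 neoSF library. Among alternatives chosen after seeing the data, CD44 was 1.02 with the LSD1 libraries alone and 0.034 with passage 25 alone, and CD9 was -0.49 with the FD2M1 libraries alone and -0.068 with passage 15 alone. The LSD1 libraries alone called 4 antigens DE higher in place of 2. PROM1 between passages was -0.015 without strain as covariate. Among the lists, the stromal antigens DE higher numbered 1 with the strain block or without the LSD1 neoSF library, and the GPI anchor genes DE higher 1 with RLE scaling, with DESeq2 or without the LSD1 passage 15 library and 0 without the FD2M1 neoSF or FD2M1 passage 25 library. The causes were not tested. Leaving out a library within the monoiPSCs leaves no residual degrees of freedom and was not run. The neoSF libraries limit depth: NT5E, CD34, PROM1 and PODXL rest on 1 to 16 counts there.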
